A study of Homo sapiens with 6 samples.

Results

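The baseline transcriptome of NTERA2/D1 cells was described from the 3 control arrays of a knockdown study. NTERA2/D1 is an established human line derived from a testicular teratocarcinoma, and it serves as a model of embryonal carcinoma. All 3 arrays came from cells that had received a nonspecific, scrambled siRNA 24 h after plating and were harvested after 72 h of transfection. The series holds 6 arrays, and the remaining 3, from cells that received siRNA against VAMP7, were not analysed here. The control cells were therefore transfected cells of 1 line, and no untransfected culture was measured. The sample titles number the 3 arrays as biological replicates 1 to 3, but the labels do not say whether these were separate cultures, so the SD between them may be partly technical. Of the 54675 probe sets on each array, 41091 named 1 gene, and the probe set of highest mean over the 3 arrays stood for each of 19775 genes.

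Embryonal carcinoma cells are the stem cells of teratocarcinomas and the malignant counterpart of the pluripotent cells of the early embryo. Their self-renewal rests on a small circuit in which the transcription factors OCT4 (POU5F1), SOX2 and NANOG bind together at regulatory DNA, including their own promoters, while the RNA-binding protein LIN28A blocks maturation of the let-7 microRNAs that promote differentiation. Regulators of mesoderm, endoderm, trophoblast and mature neurons are usually silent or weakly expressed until such cells are induced to differentiate. NTERA2 cells are best known for forming neurons after retinoic acid.

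The values are intensities on a linear scale, brought to the same trimmed mean on every array. The median gene read 225.4, 216.0 and 218.4 on the 3 arrays. No detection calls were used, so an empirical reference level was taken from 133 genes of other tissues: 82 olfactory receptors, 18 bitter taste receptors and 33 keratin-associated proteins of the hair shaft. The level was the 95th percentile of these genes on each array, which was 67.59, 64.58 and 57.73. Their own median was 17.6, 16.3 and 11.8. A gene counted as above the level when it was above it on all 3 arrays, and 12034 of the 19775 genes (60.9%) were. That share is the background for the counts of list and family members below. Among the 16516 protein-coding genes alone the share was 69.0% and the median 381. Of the reference genes themselves 2 passed, the taste receptor TAS2R14 at 389 and the olfactory receptor OR1I1 at 81.1. The brightness of a probe set depends on its probes as well as on the transcript, so every rank below is a rank of signal and not of transcript amount. Genes with several probe sets were also above the level more often (76.2% of 10523 genes) than genes with 1 probe set (43.4% of 9252), and the brightest was the one kept.

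All 3 markers of the line were among the brighter genes on every array. LIN28A read 26575, 40160 and 31773 on replicates 1, 2 and 3, a mean of 32836 ± 6855 (SD, n = 3), which was rank 75 of all genes. SOX2 read 14659, 19304 and 17673, a mean of 17212 ± 2357 and rank 226. NANOG read 5151, 4314 and 5053, a mean of 4839 ± 457 and rank 1379. LIN28A and SOX2 were lowest on replicate 1, whereas NANOG was lowest on replicate 2, and each of the 9 values lay far above the reference level of its array. By position among all genes, LIN28A lay at the 99.63rd, SOX2 at the 98.86th and NANOG at the 93.03rd percentile. The gene was read through 1 probe set for LIN28A, while SOX2 had 3 others, at 4136, 565 and 20.5, and NANOG had a second at 370.

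POU5F1, which encodes OCT4, has no probe set of its own in the annotation. A probe set that names POU5F1 together with related genes, 4 in all, read 5314, 5518 and 5916, a mean of 5582 ± 306. This signal cannot be assigned to POU5F1 alone. DPPA3, a maternal factor of the early embryo, was likewise covered only by a probe set naming 3 genes, which read 449 ± 66.4.

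The promoters of NANOG and SOX2 are shown because both genes are known targets of the factors they encode. The sequences are the 250 bases before the annotated start of transcription, 5′ to 3′ on the strand of the gene, from RefSeq on build GRCh38.p14, at chr12:7789152-7789401 (+) for NANOG and chr3:181711675-181711924 (+) for SOX2. Capitals mark TTTGCAT, the letters that POU factors such as OCT4 are known to prefer, on either strand (ATGCAAA), and ACAATG, a SOX type of motif, on either strand.
NANOG: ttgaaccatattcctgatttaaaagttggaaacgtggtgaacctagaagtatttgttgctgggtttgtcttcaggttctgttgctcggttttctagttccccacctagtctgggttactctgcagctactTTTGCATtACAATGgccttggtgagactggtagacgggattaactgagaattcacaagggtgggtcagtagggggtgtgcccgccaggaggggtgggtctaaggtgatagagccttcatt
SOX2: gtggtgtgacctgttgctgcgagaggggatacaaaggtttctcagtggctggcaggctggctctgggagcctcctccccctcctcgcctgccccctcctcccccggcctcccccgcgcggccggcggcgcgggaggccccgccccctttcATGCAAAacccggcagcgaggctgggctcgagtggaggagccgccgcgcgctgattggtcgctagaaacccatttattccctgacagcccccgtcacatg
The motif begins at position -120 from the start in NANOG and at -100 in SOX2.

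TTTGCAT by itself was found on either strand in 3.39% of the 11469 measured genes with 1 listed start, in 2.46% of those above the reference level and in 4.83% of those not above it. The arrangement seen in NANOG, TTTGCAT followed by 1 base and ACAATG, was found in 2 of the 11469 windows of 300 bases. The other was that of NRARP, an inhibitor of Notch signalling, which read 1563. Both motifs were chosen with the NANOG promoter in view, and a match describes letters only, not binding.

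**Figure D1:**
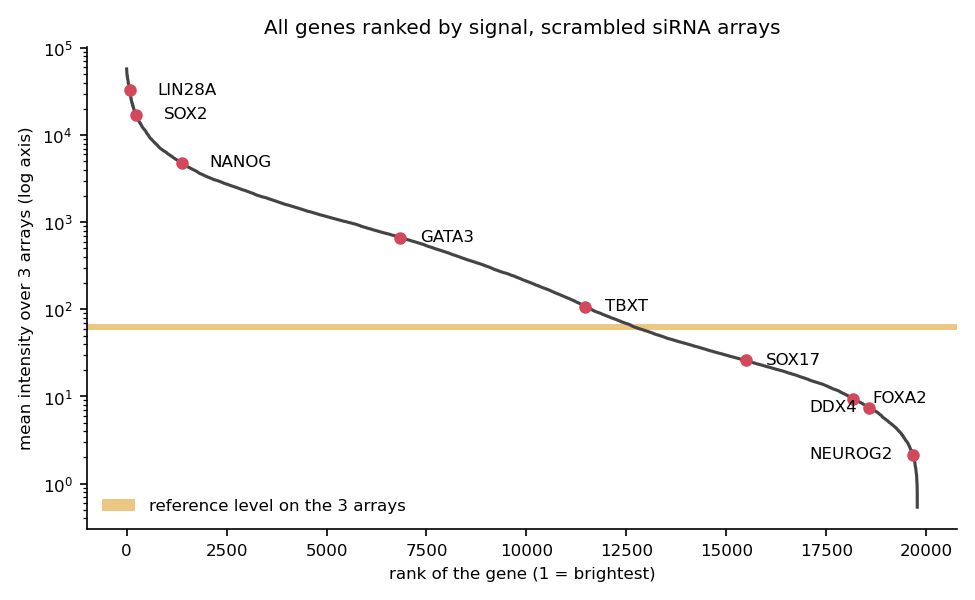
Mean intensity over the 3 scrambled siRNA arrays (vertical log axis) of all 19775 genes, ordered from brightest to dimmest (horizontal axis). The band is the range of the reference level over the 3 arrays; LIN28A, SOX2 and NANOG lie at ranks 75, 226 and 1379, and SOX17, FOXA2, DDX4 and NEUROG2 lie below the band.

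Most of the pluripotency list was above the level, 38 of 46 measured members (82.6%) against 60.9% of all genes. The list had a median of 1029 against 220.5 for all genes. After LIN28A the brightest were CD24, a surface glycoprotein, at 21581 ± 2465, SOX2, and TRIM71, a let-7 target and RNA-binding ubiquitin ligase, at 15583 ± 729. CD24 was read through a probe set of the _x_at kind, whose probes can match other transcripts. PODXL, the sialomucin that carries the TRA-1-60 epitope of human pluripotent cells, read 11944 ± 694. OTX2, a homeodomain factor of epiblast and forebrain, read 11520 ± 1604, with a second probe set at 2236. SFRP2, a secreted WNT modulator, read 11283 ± 1010. The de novo DNA methyltransferase DNMT3B read 8262, 9161 and 9489, a mean of 8971 ± 635. MYCN read 8696 ± 915 through 1 probe set, while its 9 others read between 3.45 and 21.8.

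LIN28B, the paralogue of LIN28A, read 8639 ± 279, so both LIN28 genes were bright. DPPA4, a chromatin factor of pluripotent and germ cells, read 4627 ± 271, with its other probe sets at 1341 and 24.5. L1TD1, an RNA-binding protein derived from a LINE-1 element, read 3511 ± 378, and the zinc finger factor SALL4 read 3421 ± 366. PRDM14, a repressor that maintains human embryonic stem cells, read 727 ± 47.5. Each of these genes was above the level on all 3 arrays with an SD well below its mean.

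Other members of the same list had low signal. DPPA2, which acts with DPPA4, read 100.4, 114.0 and 110.4, and ZFP42, also known as REX1, read 68.4, 93.3 and 78.2. Both were above the level on all 3 arrays, although on replicate 1 ZFP42 read 68.36 where the level was 67.59. The 8 members not above it on all arrays were IDO1 (87.6), DNMT3L (68.2), FOXD3 (61.6), TFCP2L1 (58.8), KLF5 (56.9), ESRRB (55.4), KLF17 (22.6) and DPPA5 (4.31). TFCP2L1, KLF17, ESRRB, KLF5 and DPPA5 are known from the naive state of pluripotency, the state of the embryo before implantation. KLF4, also a factor of that state, was above the level at 912 ± 103. The factors of that state named here thus lay on both sides of the level. The list was not divided by state, so no share of naive factors is given.

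Nodal and FGF signals maintain primed pluripotent cells, and their receptors and intracellular members were above the level whereas several ligands and secreted inhibitors were near or below it. In all 18 of 21 measured members (85.7%) were above the level, against 60.9% of all genes, with a median of 1570. Among receptors, the activin receptor ACVR2B read 8402 ± 652, FGFR3 read 4999 ± 488 and FGFR1 read 4878 ± 361. Only 1 of the 2 probe sets of FGFR3 was above the level. FST, the secreted activin inhibitor follistatin, read 5485 ± 319. The signal transducers SMAD3, SMAD2 and SMAD4 read 2024, 1601 and 1570, and FOXH1, their nuclear partner, read 418 ± 19. The ligand GDF3 read 1810 ± 172, FGF2 read 794 ± 177 and FGF4 read 292 ± 52.

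NODAL itself straddled the level, at 46.4, 88.5 and 104.9. LEFTY1, a Nodal inhibitor and target, read 75.0 ± 9.91 and passed on each array, and a probe set that names LEFTY2 and another gene read 108 ± 15.9. CER1 at 32.4 and INHBA at 24.8 were not above the level. TDGF1, the Nodal co-receptor, was not analysed here.

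The head of the ranking was taken by the machinery of protein synthesis and respiration. The 100 brightest genes, 0.506% of all, had means from 27895 to 57495. They held 49 of the 60 measured ribosomal protein genes and 5 of the 7 measured genes of the mitochondrial genome. When probe sets ending in _s_at or _x_at, whose probes can be shared among transcripts, were left out, 23 of these 100 genes were still among the 100 brightest. Genes covered only by probe sets that name several genes were not ranked. Such probe sets read up to 44686 for H3-3B, 40385 for EEF1G and 38502 for ACTG1, within the range of these 100. RPS23 was brightest, at 48115, 64405 and 59964, a mean of 57495 ± 8421. The mitochondrially encoded cytochrome oxidase subunit COX2 followed at 56062 ± 5603, then RPS19 at 54023 ± 5666, RPS6 at 52978 ± 7005 and RPL37A at 52802 ± 5890.

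The rest of the 30 brightest were RPL31, RPL24, RPS10, RPS16, the respiratory complex subunit ND4, RPLP1, RPL7, TPT1, RPS4X, RPL39, RPS27, RPL35A, TUBA1B, HUWE1, EEF1A1, RPL9, NACA, RPL27, RPL30, RPL41, COX1, RPL10A, RPS7, RPS21 and RPL3, down to 43204. For all neighbours in this order the difference in mean was smaller than the SD between arrays. Replicate 1 was the lowest array for all of the 100 brightest genes, and replicate 2 was the highest for 96 of them. The mean of these 100 was 33312 on replicate 1, 43392 on replicate 2 and 40550 on replicate 3.

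**Figure D2:**
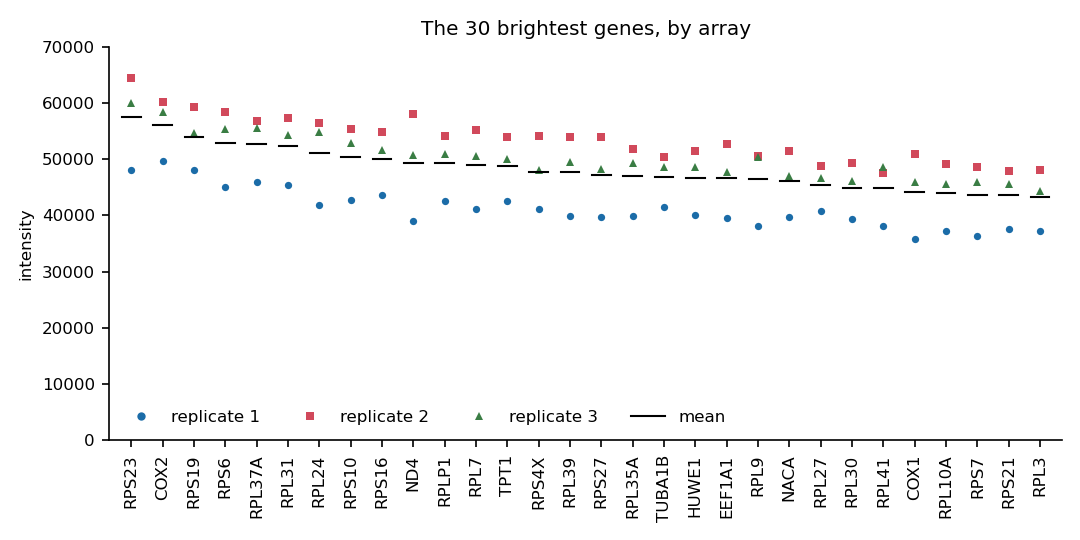
Intensity (vertical linear axis from 0) of the 30 brightest genes on each of the 3 scrambled siRNA arrays, with the mean as a bar. Replicate 1 is the lowest point for every gene shown, and RPS23 has the highest mean, 57495.

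HUWE1, a large ubiquitin ligase, read 46689 ± 5940 through a probe set of the _x_at kind, whose probes can match other transcripts. Its other probe sets read 2739, 194, 25.1 and 10.9, so the rank of HUWE1 rests on that 1 probe set. Such probe sets stood for 29 of the 100 brightest genes against 5.46% of all genes, and the _s_at kind, shared among transcripts, stood for 52 against 21.8%. BCAT1, the cytosolic enzyme that transaminates branched-chain amino acids, read 36515 ± 5247 with a second probe set at 34930. It belonged to none of the lists, as did 15 others of the 100, among them UBB, a polyubiquitin gene, at 39266 ± 4921, PHB2, a prohibitin of the inner mitochondrial membrane, at 37769 ± 5084 and FTL, the ferritin light chain, at 37547 ± 5368.

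Many vertebrate genes for ribosomal proteins and elongation factors begin transcription at a C followed by an uninterrupted run of pyrimidines, the TOP tract, through which their translation responds to mTOR. The first bases of 5 bright genes of this class are shown beside GAPDH and TUBA1B, which lack the tract. Each sequence runs from 20 bases before the annotated start to 20 bases after it, 5′ to 3′ on the gene's strand (RefSeq, GRCh38.p14), with the pyrimidine tract that opens the transcript in capitals.
RPS23, chr5:82278335-82278374 (-): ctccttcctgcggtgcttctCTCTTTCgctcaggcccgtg
RPS6, chr9:19380217-19380256 (-): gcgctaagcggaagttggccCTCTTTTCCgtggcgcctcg
RPL37A, chr2:216498824-216498863 (+): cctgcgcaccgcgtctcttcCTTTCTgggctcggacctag
EEF1A1, chr6:73521013-73521052 (-): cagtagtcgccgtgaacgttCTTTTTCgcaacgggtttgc
TPT1, chr13:45341164-45341203 (-): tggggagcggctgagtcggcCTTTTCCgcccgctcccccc
GAPDH, chr12:6535244-6535283 (+): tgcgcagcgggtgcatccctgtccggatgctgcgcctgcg
TUBA1B, chr12:49131376-49131415 (-): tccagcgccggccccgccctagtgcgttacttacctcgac

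A start of this form, a C and then at least 4 pyrimidines, was found in 33 of 45 ribosomal protein genes with 1 listed start (73.3%) and in 38 of 65 such genes among the 100 brightest (58.5%). In all 11469 genes the share was 4.49%. Among the 28 of the 100 brightest that are not ribosomal protein genes it was 10 (35.7%). The 100 brightest also held 10 translation factors, which were not set apart in that share. The promoters of genes above the level also differed in composition from the others. The ratio of observed to expected CpG exceeded 0.6 in 88.1% of 6951 genes above the level and in 34.6% of 4518 not above it. In the 101 reference genes with 1 listed start the share was 1.98%. The letters TATAAA within 50 bases before the start were found in 1.77% of genes above the level, 6.88% of those not above and 22.8% of the reference genes. In the 100 brightest it was 4 of 65 genes (6.15%) and in ribosomal protein genes 3 of 45 (6.67%). These sets overlap, and counts this small do not place them beside either group.

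Beyond ribosomes, other groups of general cell machinery had medians far above the 220.5 of all genes. Of the translation factors 30 of 32 were above the level (median 12554), led by TPT1 at 48883, EEF1A1 at 46654 and NACA at 46071. The exceptions, EIF3C at 25.9 and EIF4A2 at 17.8, were each read through 1 probe set. All 30 cytoskeletal genes were above the level (median 14801), down to TPM4 at 756, with TUBA1B at 46829, ACTB at 42609 and TUBA1A at 38471. All 29 chaperones and isomerases were too (median 12321), led by the mitochondrial chaperonin HSPD1 at 43107 ± 6585, PPIA at 38957 and NPM1 at 38922.

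The list of RNA-binding and splicing proteins was complete above the level, 37 of 37, with a median of 14936. It was led by YBX1, a cold-shock domain protein, at 39477 ± 5577, SNRPE at 28645 and HNRNPA2B1 at 26097. The 3 IGF2BP proteins, oncofetal RNA-binding proteins of embryo and tumour, read 2637 for IGF2BP1, 9094 for IGF2BP2 and 12241 for IGF2BP3. All 19 glycolysis genes were above the level (median 4684), down to ALDOC at 171. LDHB at 42778 ± 5567 was the brightest of them, followed by GAPDH at 40260 and TPI1 at 30977. The glucose transporter SLC2A3 read 24607 ± 1995.

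Chromatin genes were above the level without exception, 40 of 40, with a median of 10173. NAP1L1, a histone chaperone, read 24453 on replicate 1 but 43252 and 43493 on the others, a mean of 37066 ± 10924. The nucleosome-binding HMGN2 read 32190 ± 3945 and PTMA read 29583 ± 4807. HMGA2 and HMGA1, architectural proteins of embryonic and tumour cells, read 11890 ± 1245 and 11881 ± 1543, although only 1 of the 9 probe sets of HMGA2 was above the level. The DNA methyltransferases DNMT1 and DNMT3A read 7878 and 4677, and TET1, which oxidises methylcytosine, read 4368. The Polycomb subunits EED, SUZ12 and EZH2 read 3908, 2811 and 2773.

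The lists of S phase and mitosis genes were above the level in full, and 1 cell cycle inhibitor was not above it. All 32 measured S phase genes passed (median 5262), led by thymidylate synthase TYMS at 15786 ± 1516, the sliding clamp PCNA at 15681 ± 1947 and RRM1, a ribonucleotide reductase subunit, at 13713 ± 810. All 32 mitosis genes passed too (median 4380), with the CDK-binding proteins CKS2 and CKS1B at 21344 and 19258 and the ubiquitin-conjugating enzyme UBE2C at 12127 ± 1422. Of 12 measured inhibitors and checkpoint genes 11 passed (median 1247). CDKN1B, the CDK inhibitor p27, read 11311 ± 803, GADD45A read 6938 ± 866 and BTG1 read 2982 ± 176. Among the INK4 inhibitors, CDKN2A read 87.7, just above the level, and CDKN2B was not above it at 29.0. CDKN1A, the CDK inhibitor p21, read 253 ± 32.2.

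Of the neural ectoderm and neuron list 24 of 35 measured members (68.6%) were above the level, against 60.9% of all genes. The share of protein-coding genes was 69.0%. The list median was 262, against 220.5 for all genes and 381 for protein-coding genes. The cytoskeletal genes VIM, TUBB3, NES and MAP2 read 22340 ± 2659, 14146 ± 1383, 7623 ± 250 and 4847 ± 174. They are known from neural progenitors and neurons, but VIM and TUBB3 are also made by many cultured cells. Only 1 of the 2 probe sets of VIM was above the level, and TUBB3 was read through a probe set of the _x_at kind. ZIC2, a zinc finger factor of epiblast and neural plate, read 11647, 14015 and 12646, a mean of 12769 ± 1189. LHX2, a forebrain and eye factor, read 7251, 6947 and 6089, a mean of 6762 ± 602, with a second probe set at 1009. EMX2, a cortical factor, read 1708 ± 38.

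SOX3 read 1497 ± 37.7, PAX6, the eye and forebrain regulator, read 1018 ± 26.8 and SOX1 read 228 ± 8.18. Their 3 arrays lay close together, and SOX1 was near the median gene. A second probe set read 968 for PAX6 but 74.8 for SOX3. The proneural factors that commit cells to neurons were not above the level, with NEUROG1 at 35.8, NEUROG2 at 2.15 and NEUROD4 at 18.7, while DCX, a microtubule protein of young neurons, read 637 ± 16.4. HES5, a Notch target of neural progenitors, read 5.10, while its relative HES1 read 4777 ± 326. Among terminal genes of neurons and glia 9 of 24 were above the level (median 60.2). The neurofilaments NEFL and NEFM read 2565 ± 49.4 and 1158 ± 54.6, and GAD1, which makes GABA, read 984 ± 233. The synaptic vesicle protein SYP read 7.79, the tyrosine hydroxylase TH read 4.72 and the astrocyte filament GFAP read 19.3.

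Surface ectoderm and neural crest genes were above the level for 17 of 24 measured members (70.8%, against 60.9% of all genes), with a median of 166. For protein-coding genes the share was 69.0% and the median 381. The simple epithelial keratins KRT18 and KRT8 read 25649 ± 2956 and 10135 ± 1030, each through 1 probe set, of the _x_at kind. The basal keratins KRT5 and KRT14 were not above the level at 6.79 and 45.3. PAX3, a dorsal neural and crest factor, read 1489 ± 78 through 1 probe set, with its others at 67.7, 55.1 and 9.06. MSX2, a homeodomain target of BMP, read 1291 ± 77.1. Of the SOXE factors, SOX9 read 812 ± 39.9 and SOX8 read 512 ± 11.9. SOX10, which marks migrating crest and its glia, read 60.3, 101.1 and 39.5 and was not above the level on all 3 arrays. KRT19, GRHL3 and MSX1 read 684, 575 and 509.

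**Figure D3:**
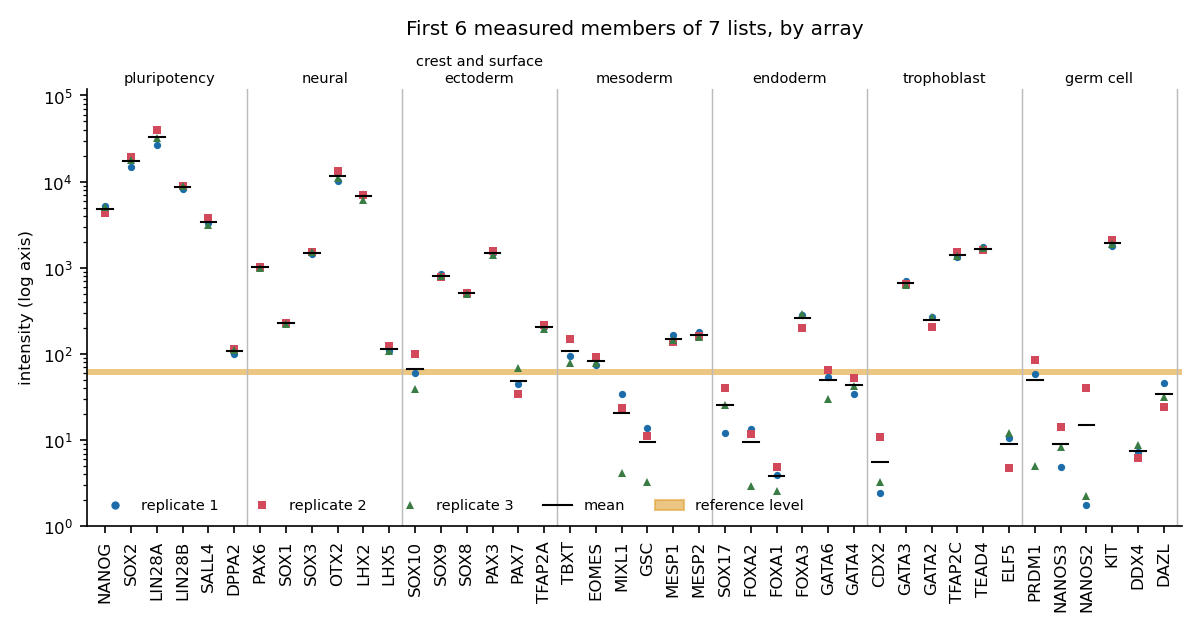
Intensity (vertical log axis) on each of the 3 scrambled siRNA arrays of the first 6 measured members of 7 gene lists, in the order in which the lists were written. The bar is the mean and the band the reference level; all of the pluripotency and neural members shown lie above the band, whereas the points of SOX17, FOXA2, FOXA1, CDX2, ELF5, NANOS3 and DDX4 lie below it.

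Mesoderm regulators were near the level as a group, with 12 of 26 measured members above it and a median of 65.7. Their share was 46.2%, against 60.9% of all genes. The VEGF receptor KDR was the brightest at 840, 988 and 913, a mean of 914 ± 74.4, and the ligand BMP4 read 757 ± 90.2. TWIST1 at 310 ± 51.6 was the only other member above the median gene. PDGFRA, NKX2-5, MESP2, FOXC2 and MESP1 followed, between 149 and 206. TBXT, the primitive streak factor brachyury, read 94.3, 150 and 77.7, and EOMES read 82.5 ± 9.69. EOMES lay just above the level on each array, and TBXT was highest on replicate 2. The streak factors MIXL1 at 20.7 and GSC at 9.50, TBX6 at 41.2 and the heart factor HAND2 at 3.40 were not above it.

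The endoderm list was lower, with 5 of 18 measured members above the level and a median of 33.9. SOX17, the defining endoderm factor, read 12.0, 40.1 and 25.6, and the pioneer factors FOXA2 and FOXA1 read 9.43 and 3.82. GATA6 read 54.3, 65.3 and 30.4, HHEX read 23.6 and CDX2 read 5.55. The members above the level were the chemokine receptor CXCR4 at 1670 ± 262, PROX1 at 579 ± 100.5, FOXA3 at 260 ± 49.6, SOX7 at 148 ± 11.9 and EOMES. The other probe sets of PROX1 read between 106 and 119, and those of CXCR4 read 694 and 646. CXCR4 is also made outside the endoderm, for instance in germ cells and neural progenitors.

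For yolk sac and visceral endoderm, which yolk sac tumours resemble, 10 of 23 measured members were above the level, with a median of 69.0. The bright ones were the surface proteoglycan GPC3 at 6595 ± 249 and the basement membrane genes SPARC at 6003 ± 1099, COL4A1 at 5422 ± 357, LAMB1 at 4659 ± 301 and COL4A2 at 4105 ± 188. Only 1 of the 2 probe sets of GPC3 was above the level. APOC1 read 3664 ± 125 and DAB2 read 339 ± 34.3. Secreted plasma proteins of the list lay on both sides of the level. APOA1 and RBP4, like APOC1, were above it, at 147 ± 53.8 and 128 ± 13.2. AFP, ALB, TTR and APOA2 were not, at 38.4, 22.6, 27.5 and 15.6, nor were TF, APOB, FGA, FGB, APOC3 and SERPINA1, at 11.6 to 69.0.

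Trophoblast regulators were above the level for 7 of 23 measured members, with a median of 26.1. TEAD4, a Hippo pathway factor, read 1666 ± 64.7, TFAP2C read 1403 ± 94.7 and the growth factor PGF read 1018 ± 72.2. A second probe set read 1430 for TEAD4 but 110 for TFAP2C. GATA3 read 709, 657 and 629, a mean of 665 ± 40.6, with its other probe sets at 134 and 105. GATA2 read 247 ± 38.3 and TFAP2A read 205 ± 12.4. CDX2, ELF5 and GCM1, which define trophoblast stem cells and syncytium, read 5.55, 9.14 and 10.7. The hormone subunit CGA read 12.3, and a probe set naming 5 genes including CGB3 read 18.98.

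The germ cell list is of interest because the tumour arises from germ cells. It held 10 of 28 measured members above the level (35.7%, against 60.9% of all genes) and had a median of 45.0. TDRD12 and PIWIL2, members of the piRNA pathway, read 5036 ± 521 and 1962 ± 186. ID4 read 2738, 2721 and 2721, a mean of 2726 ± 9.79, and the receptor KIT read 1939 ± 142. TFAP2C is shared with trophoblast, and PDPN at 673, ZBTB16 at 390, DND1 at 273, GFRA1 at 199 and UTF1 at 151 completed those above. The specifiers of human primordial germ cells were low apart from TFAP2C, since SOX17 read 25.9, PRDM1 read 49.4 and NANOS3 read 9.12. The later germ cell genes DDX4 at 7.44 and DAZL at 34.0 were not above the level either.

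Of 18 cancer testis genes, which are silent in most adult tissue outside the testis and are often activated in tumours, 1 was above the level and the median was 14.1. That gene was SPA17, a sperm protein, at 1328 ± 97.6. SSX1 at 34.2 and MAGEC2 at 32.1 came next, MAGEA1 read 5.10 and PRAME read 11.6. Among somatic cell markers of the testis 5 of 16 were above the level (median 42.5). CLU, a secreted chaperone, read 5321 ± 473, SOX9 is shared with the crest list, and STAR, CLDN11 and INSL3 read between 175 and 300. The gonadotropin receptors LHCGR and FSHR read 17.1 and 9.72, and a probe set that names AMH with another gene read 807 ± 87.5.

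**Figure D4:**
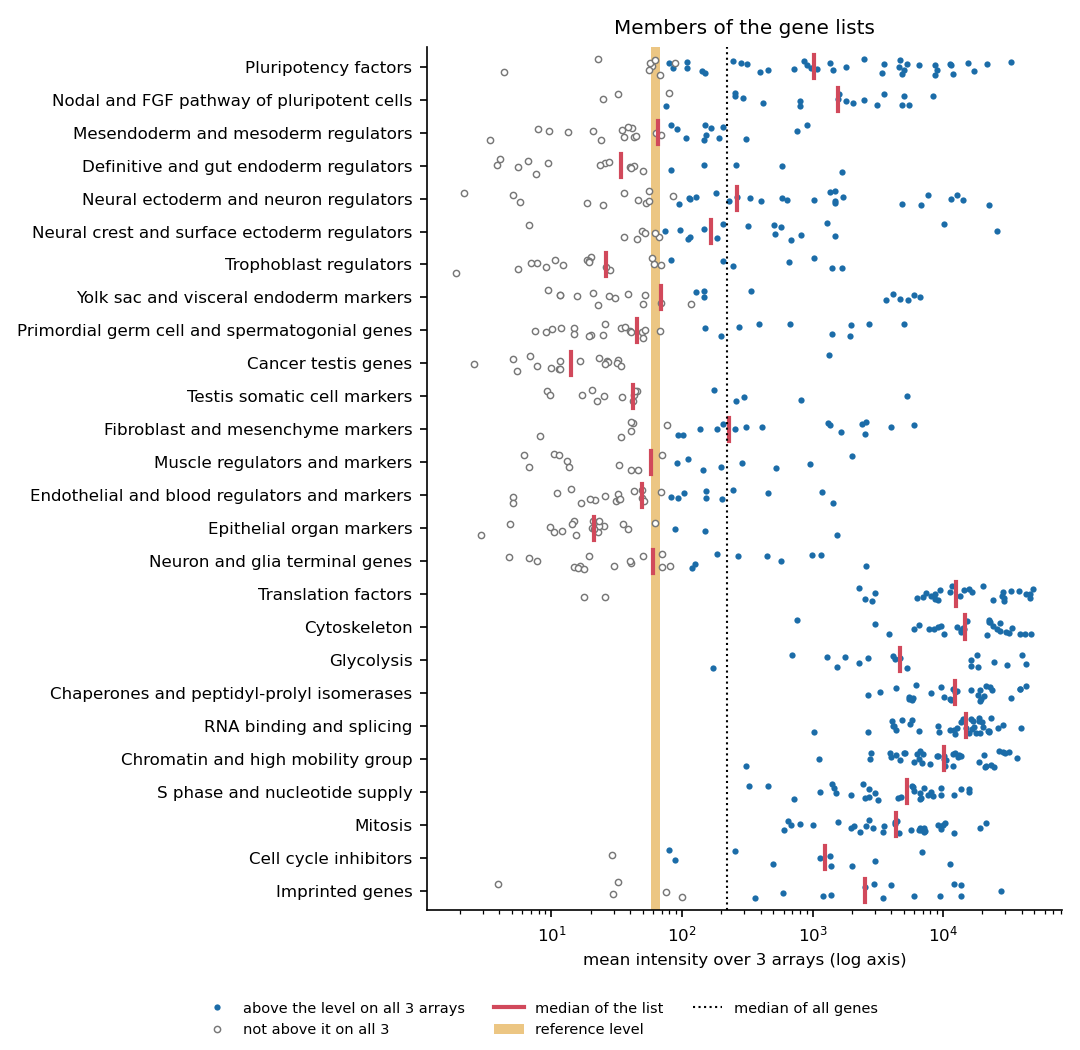
Mean intensity over the 3 scrambled siRNA arrays (horizontal log axis) of each measured member of the 26 gene lists (rows), with the median of each list as a red bar. Filled points were above the reference level on all 3 arrays; the medians run from 14.1 for cancer testis genes to 14936 for RNA binding and splicing, and the dotted line is the median of all genes, 220.5.

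Markers of cell types that could contaminate a culture were checked in the same way. Fibroblast and mesenchyme genes were above the level for 16 of 22 members (72.7%, against 60.9% of all genes and 69.0% of protein-coding genes). Their median was 229, against 220.5 for all genes and 381 for protein-coding genes. Their summed intensity ran from 22564 to 24997 over the arrays. SPARC, MMP2 at 3988 ± 434, COL1A1 at 2568 ± 234, S100A4 at 2525 and FN1 at 2384 were the brightest. Only 1 of the 3 probe sets of MMP2 was above the level. COL6A1, THY1, COL5A1, PDGFRB and LUM read 1637, 1361, 409, 253 and 184. The 6 members not above the level were LOX at 76.9, COL1A2 at 42.3, POSTN at 40.8, DCN at 40.6, COL3A1 at 34.0 and FAP at 8.14. Of the muscle list 8 of 18 (44.4%) were above it (median 58.2), led by the cardiac myosin MYH6 at 1997 ± 132, TNNT1 at 952 ± 122 and MYL4 at 523 ± 83.4. The muscle regulators MYOD1 and MYOG read 13.1 and 6.73.

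Endothelial and blood genes were above the level for 10 of 27 (median 49.6). TEK at 1425 ± 133 and VWF at 1176 ± 44.2 led, each through 1 probe set whose partner read 45.7 and 53.6. LMO2 read 458 ± 61.6. The leukocyte antigen PTPRC read 21.4, the endothelial cadherin CDH5 read 42.7 and the myeloid factor SPI1 read 5.04. Markers of epithelial organs were above it for 3 of 21 (median 21.3), namely KRT10 at 1526 ± 50.7, SFTPB at 150 and CYP3A4 at 88.6.

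Families of developmental transcription factors differed in how many members were above the level. Of all genes 60.9% were above it, and several families had a share near that. Of 28 measured HOX genes, which pattern the body axis, 2 (7.14%) were above it, HOXC4 at 150 ± 22.8 and HOXB2 at 104 ± 13.6. On no array were 20 of them above it. The family median was 25.1, against 17.0 for the reference genes. None of the 3 CDX genes, activators of HOX clusters, was above the level. Of 12 POU genes with a probe set of their own 2 were, POU3F1 at 405 ± 47.1 and POU3F2 at 115.

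All members measured were above the level in the SALL (4), ID (4), MSX (2), E2F (8) and SMAD (8) families. So were all 5 measured relatives of the eye field factor SIX3, itself included. With so few members, these counts say little about a share. The zinc finger factors SALL1, SALL2, SALL4 and SALL3 read 10165 ± 2271, 7508 ± 58.8, 3421 and 1909. SALL1 was lowest on replicate 3, at 7592 against 11010 and 11892. The ID proteins, inhibitors of basic helix-loop-helix factors, read 11345 ± 1975 for ID2, 7546 for ID3, 6093 for ID1 and 2726 for ID4. SIX3 read 1370, E2F7 led the cell cycle regulators of the E2F family at 3470 ± 167, and SMAD5 led the SMAD family at 3864 ± 151.

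The SOX family had 12 of 19 members above the level (63.2%), near the 60.9% of all genes. After SOX2 these were led by SOX4 at 10320 ± 348, SOX11 at 3820 ± 229, SOX5 at 2078 and SOX3. Of 39 FOX genes 20 (51.3%) were above the level, led by FOXM1, a driver of mitotic genes, at 6334 ± 439. Of 9 PAX genes 5 (55.6%) were, PAX3, PAX6, PAX5 at 953 ± 76, PAX2 at 426 and PAX8 at 247. IRX3 at 2486 ± 596 led the IRX family (4 of 5), KLF3 at 2610 ± 95.7 the KLF family (12 of 17, 70.6%) and LHX2 the LHX family (3 of 8). Among nuclear receptors of the NR families 10 of 18 (55.6%) were above the level. NR6A1, also called germ cell nuclear factor and known to repress POU5F1 on differentiation, was the brightest at 4105 ± 105. GATA factors (2 of 6), TBX factors (5 of 17) and NKX factors (2 of 10) had few members above the level.

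Imprinted genes, which are expressed from 1 parental allele, were above the level for 14 of 19 measured members, with a median of 2520. GNAS, the stimulatory G protein alpha subunit, read 27720 ± 3128, PEG3 read 13684 ± 500 and DLK1, a Notch-like membrane protein, read 13580 ± 1491. PEG10, MEST, GRB10 and NDN read 12168, 9391, 6005 and 3966. MEG3, SNRPN and NNAT were not above the level on all arrays, at 99.2, 32.3 and 29.6, although SNRPN was read through 1 probe set with its own name. The probe sets that name IGF2 or H19 with another gene read up to 278 and 416. Arrays of this kind do not separate the alleles.

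The measured genes nearest the 3 markers, in the order of the reference gene table, lay on both sides of the level. Genes not measured were passed over. Most of the measured neighbours were above the level, as were 60.9% of all genes. Near NANOG, SLC2A3 was bright, GDF3 read 1810 ± 172 and FOXJ2 read 1488. CLEC4C, C3AR1 and APOBEC1 read 18.6, 18.8 and 38.4. Beside SOX2, its overlapping transcript SOX2-OT read 233 ± 56.5, FXR1 read 8198 ± 395 and LINC01206 read 25.96. DNAJC19, DCUN1D1 and ATP11B, also beside SOX2, read 2554, 1811 and 670. Beside LIN28A, HMGN2 read 32190 ± 3945, and DHDDS, CRYBG2 and CD52 read 978, 755 and 149. ZNF683 and DHDDS-AS1 read 18.1 and 33.1. By class of gene, 69.0% of 16516 protein-coding genes and 17.2% of 2656 long noncoding RNA genes were above the level. Of the 100 brightest 99 were protein-coding.

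The 3 arrays resembled each other closely. Across genes, which are not independent replicates, Pearson correlations between pairs of arrays ran from 0.9905 to 0.9917 on log2(intensity + 50), and no pair held identical values. Of the 100 brightest genes of each array, 96 or 97 were shared between any pair. The SD between arrays was 8.61% of the mean for the median gene above the level and 55.1% for the median gene not above it. In 4 bands of rising intensity among genes above the level the median was 14.9%, 9.41%, 6.75% and 6.49%, and among the 100 brightest it was 13.2%. The ratio of 3′ to 5′ signal of the GAPDH control was 0.941, 0.946 and 0.989. That of the beta-actin control was 2.46, 2.27 and 3.43, highest on replicate 3.

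**Figure D5:**
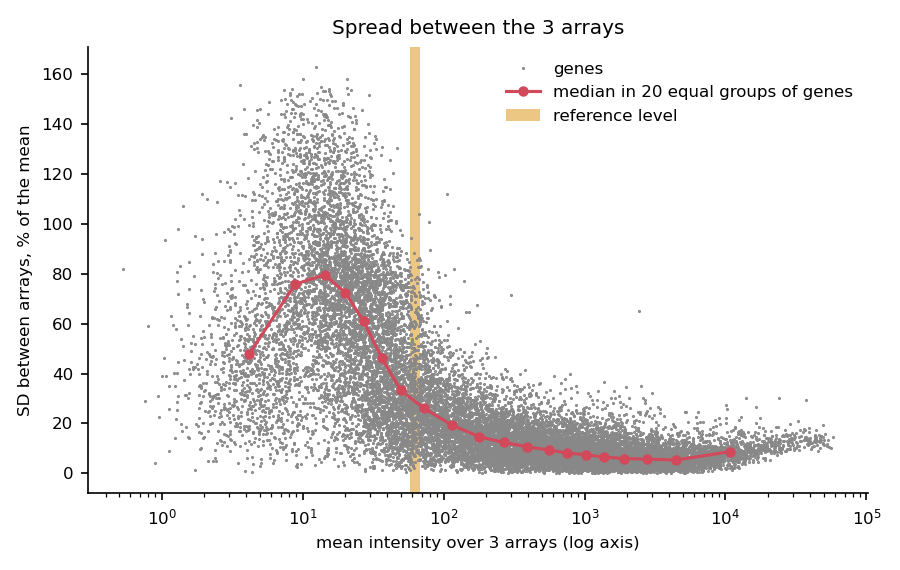
SD between the 3 scrambled siRNA arrays as a percentage of the mean (vertical axis) against mean intensity (horizontal log axis), 1 point per gene. The line joins medians of 20 equal groups of genes and the band is the reference level; the median is 8.61% for genes above the level and 55.1% for the others.

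Among genes above the array median that were also above the reference level on all 3 arrays, a few differed widely between the arrays. EEF2KMT, a lysine methyltransferase of elongation factor 2, read 370, 475 and 59.9. ITFG1 read 3223, 3487 and 615, whereas its next probe set read 713 ± 63.1. Both were low on replicate 3. The other 6 genes of largest relative SD were KLC4, DHX38, RCE1, SYT2, CEBPD and SLC25A16, at 39.7% to 46.7% of their means, with no array in common as the odd one. KLC4 was high on replicate 3, DHX38 was low on replicate 2, and SYT2 and SLC25A16 were low on replicate 1. At the other end, INTS8, a subunit of the Integrator complex, read 2592, 2598 and 2599, an SD of 0.133% of its mean. MYD88, GEMIN7, DCAF6, PHB1, DRC8, GOSR2 and APPL1 followed, all below 0.284%. With 3 arrays, so small an SD carries little precision of its own.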

How the data were processed

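Total RNA was labelled with biotin and hybridised to whole-transcriptome 3′ arrays, per the labels' protocols. The authors deposited intensity values on a linear scale, each array scaled to a trimmed mean of about 500.07 after leaving out 2% of values at each end, as the values show. The submitters' processing notes name RMA, which gives log2 values and does not describe these. How background was corrected, and with which software, is not stated in the sources used here.

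Genes were assigned through the platform's annotation, and 41037 of 41091 identifiers (99.87%) matched a GRCh38.p14 gene table, used to update symbols and for gene order. Probe sets naming several genes (1801), no listed gene (11721) or array controls (62) stood for no gene. With 1 group there was no comparison and no test. The members, gene lists and rules were chosen with earlier results of these data known. The genes named were the 30 brightest, the 3 markers, the brightest members of each list, the first 3 of each lineage list, family leaders and the 8 genes at each end of the spread. Low members named beyond this were picked after their values were seen. Promoter windows were available for 15384 genes, and 11469 with 1 listed start were used. Genes near the reference level have an uncertain call, and precision is limited by the 3 arrays. Python 3.11.15, numpy 2.4.6, pandas 2.3.3 and matplotlib 3.10.9 were used, and the code was tested on simulated data.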

Additional observations from a re-analysis of the deposited data

How the results depend on the processing

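Each of 32 results was recomputed under up to 16 alternatives, which gave 398 values. Of these 361 stayed within 1.5 times the reported value (counts) or within the SD between arrays (percentiles) or pairs of arrays (the relative SD). The other 37 were counted as moved. Among these was the SD of log2 values, which is on another scale and was not compared. The count of genes above the level ran from 9114 to 12409 over all alternatives, and from 12233 to 12293 with an array left out. It was 11498 at the 99th percentile of the reference genes and 9546 with the median gene of each array as the level. The choice of probe sets moved most results. Without probe sets ending in _s_at or _x_at, 23 of the 100 brightest genes remained. Of 17098 genes, 9114 (53.3%) were then above the level. List counts fell to 24 of 35 for pluripotency factors and 10 of 19 (52.6%) for neural crest and surface ectoderm. For fibroblast markers the count was 9 of 17 (52.9%). It was 0 of 13 for cancer testis genes, 4 of 12 for muscle and 0 of 18 for epithelial organ markers. For cytoskeleton it was 14 of 17, for glycolysis 8 of 10 and for chromatin 22 of 27. For mitosis it was 21 of 24 and for cell cycle inhibitors 6 of 10. The counts fell in part because fewer members were then measured. With the median gene as the level the counts were 3 for mesoderm, 2 for endoderm, 10 for neural crest and surface ectoderm, 4 for trophoblast, 3 for testis somatic, 4 for muscle, 3 for endothelial and blood and 1 for epithelial organ markers. With the median of a gene's probe sets they were 3 for testis somatic and 6 for endothelial and blood markers. The median relative SD was 7.90% after quantile normalization, 10.5% after scaling to equal medians, 14.8% over all genes, 6.96% to 7.15% with an array left out and 0.114 as an SD of log2 values. With an array left out the SD rests on fewer arrays, so those values are not directly comparable with the reported one. Over all alternatives the percentile ran from 99.60 to 99.91 for LIN28A, from 91.67 to 99.61 for SOX2 and from 91.73 to 95.88 for NANOG. No paired analysis was possible because only 1 group was described and no groups were compared.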
